A study of Mus musculus with 12 samples.

Results

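TRBV31, known in the older nomenclature as Vbeta14, is the only mouse TCR beta V segment that lies downstream of the D, J and C segments and points the opposite way. It was followed through the TCR beta chains of CD4+ T cells that had expanded in lymphocyte-deficient hosts. A clonotype, defined here by its V segment, J segment and complementarity-determining region 3 (CDR3) nucleotides, was assigned to TRBV31 when TRBV31 was the first V gene in the deposited V hits. This selected 9453 of 113664 clonotypes over 12 libraries, which carried 126339 of 1716882 unique molecular identifiers (UMIs, tags that mark single cDNA molecules). Among the 9453 clonotypes, 7 had more than 1 V hit. After both organs of a mouse were united, 8619 TRBV31 clonotypes remained.

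The libraries came from 6 Rag2–/– mice, which lack T and B cells of their own. All had received naive CD4+CD25−CD44−CD62L+ T cells on the C57BL/6 background 6 weeks earlier. The donors carried floxed PRKAA1 alleles (WT, replicates 1, 3 and 4) or the same alleles with CD4-Cre, which deletes the AMPKα1 subunit in T cells (KO, replicates 1, 2 and 3). CD4-Cre acts in the thymus after the beta chain has been assembled, and AMPKα1 was deleted in the transferred T cells only. Each mouse gave 1 mesenteric lymph node (mLN) and 1 spleen library, so that each of the 4 groups held 3 libraries. The age given for the study's mice in general is 6 to 8 weeks. The libraries hold TCR beta transcripts only, so that no marker gene of another cell type could be examined.

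A beta chain gene is assembled in the thymus by joining a D to a J segment and then a V segment to the DJ joint. Recombination signals flank each segment, and the RAG recombinase cuts between the signal and the coding end. Upstream V segments join by deletion of the DNA in between. TRBV31 joins by inversion, so that the stretch between it and the DJ joint is turned around and kept in the chromosome. The joint is then trimmed by nucleases and filled with nontemplated bases before the ends are ligated, which makes CDR3 the most variable part of the receptor.

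In the RefSeq annotation of GRCm38.p6, TRBV31 lay on chromosome 6 at positions 41557693 to 41558371 of the minus strand. It was the only one of 22 annotated V segments on that strand. It started 9.5 kb after the end of TRBC2, 13.8 kb after the end of TRBJ2-7 and 23.8 kb after the start of TRBJ1-1. By contrast, TRBV30, the V segment nearest to the D segments on the upstream side, ended 251.2 kb before TRBD1, and TRBV1 started 641.9 kb before it. The germline V end, which encodes the residues by which TRBV31 joints are recognized, is shown with its recombination signal, whose heptamer is in capitals (chr6:41557654-41557706, minus strand).
TRBV31 V end: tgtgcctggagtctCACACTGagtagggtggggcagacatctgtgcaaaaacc
The 14 bases before the heptamer open CDR3, and the first codons read Cys-Ala-Trp. The D segments are shown because their use was compared between TRBV31 and the other V segments (chr6:41533201-41533212 and chr6:41542163-41542176, plus strand).
TRBD1: gggacagggggc
TRBD2: gggactgggggggc
The J segments with the largest log2 fold changes in use are shown with the bases up to the phenylalanine codon that closes CDR3 in capitals (chr6:41534001-41534048 for TRBJ1-2, chr6:41535554-41535606 for TRBJ1-6, chr6:41542754-41542803 for TRBJ2-1, chr6:41543223-41543271 for TRBJ2-3 and chr6:41543362-41543410 for TRBJ2-4, all on the plus strand).
TRBJ1-2: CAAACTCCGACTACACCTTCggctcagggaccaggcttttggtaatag
TRBJ1-6: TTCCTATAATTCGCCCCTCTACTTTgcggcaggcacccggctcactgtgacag
TRBJ2-1: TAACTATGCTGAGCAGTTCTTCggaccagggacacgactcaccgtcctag
TRBJ2-3: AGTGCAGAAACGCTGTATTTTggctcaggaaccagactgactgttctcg
TRBJ2-4: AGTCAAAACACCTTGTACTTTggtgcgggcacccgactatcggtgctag

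Library depth ranged from 2488 UMIs (KO replicate 3 mLN, with 27 TRBV31 clonotypes) to 493287 UMIs (WT replicate 3 spleen, with 1826). Of the TRBV31 clonotypes, 25.9% to 39.6% rested on a single UMI in 5 libraries (KO replicate 3 mLN and the WT replicate 1 and KO replicate 1 pairs) and 62.8% to 84.0% in the other 7. The V label was set beside the start of CDR3, which the V alignment itself covers, so that this is not an independent check. Of TRBV31 clonotypes with at least 2 UMIs, 97.3% (2358 of 2424) had a CDR3 that began with the germline-encoded residues CAW, against 0.00431% of those of other V segments. Among TRBV31 clonotypes of 1 UMI the share was 54.9% (3856 of 7029), and other starts such as CACS (269 clonotypes), CSWS (164) and CAGS (140) appeared, each of which replaces 1 residue of CAWS. Of the 1-UMI clonotypes, 21.5% with TRBV31 and 17.2% with other V segments lay within 2 bases of a clonotype with at least 10 times the UMIs in the same library. Values for clonotypes of at least 2 UMIs, called repeated clonotypes here, are therefore given beside those for all clonotypes. There were 1789 such TRBV31 clonotypes after uniting the organs.

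To see how much of the repertoire used TRBV31, its share of UMIs was compared across genotypes and organs. In WT spleen TRBV31 took 5.17%, 6.48% and 6.91% of UMIs (replicates 1, 3 and 4), and in KO spleen 5.43%, 6.79% and 11.4% (replicates 1, 2 and 3). KO replicate 3 lay above every other library, and the remaining KO values fell within the WT range. In mLN the shares were 6.41%, 5.89% and 7.53% in WT and 7.91%, 7.75% and 6.19% in KO, with overlap between the genotypes. The means were 6.19% ± 0.904 (SD, n = 3) in WT spleen, 7.89% ± 3.15 in KO spleen, 6.61% ± 0.839 in WT mLN and 7.28% ± 0.949 in KO mLN. Fewer TRBV31 cells and less beta chain mRNA per cell cannot be told apart in such libraries. The widest Wilson 95% interval of a library ran from 5.31% to 7.21% (KO replicate 3 mLN).

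**Figure D1:**
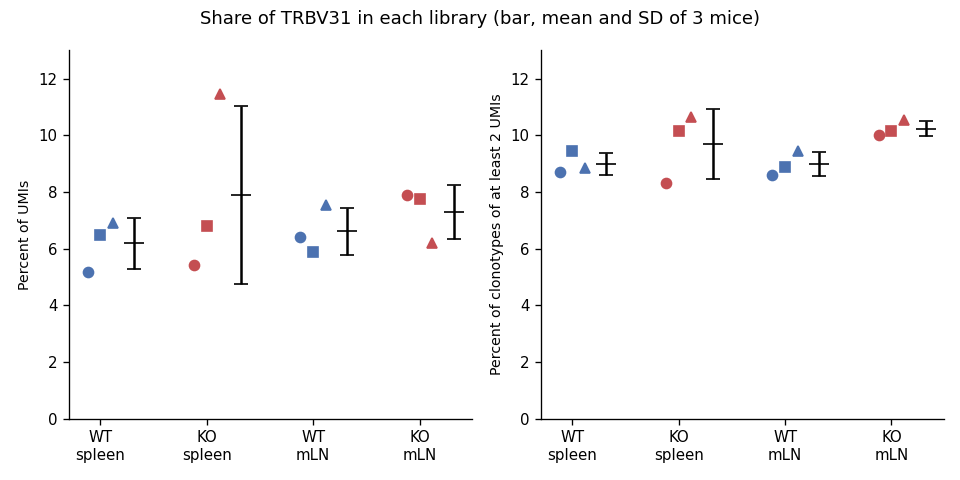
The 2 panels plot the percent of UMIs (left) and the percent of clonotypes of at least 2 UMIs (right) that used TRBV31, with 1 point per library (circle, replicate 1; square, WT replicate 3 or KO replicate 2; triangle, WT replicate 4 or KO replicate 3) and bars for mean and SD of 3 mice. The KO replicate 3 spleen stands at 11.4% of UMIs.

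TRBV31 UMIs did not differ between the genotypes past the threshold of an adjusted p of 0.05. In spleen the KO to WT log2 fold change was 0.35 (SE 0.515, adjusted p = 0.733, edgeR's quasi-likelihood test), where 2 of 25 V segments tested were called (8%). Without KO replicate 3 it was −0.02. In mLN the log2 fold change was 0.14 (SE 0.433, adjusted p = 0.830, edgeR), where 0 of 23 V segments were called (0%) and 1 had an unadjusted p under 0.05. Between mLN and spleen of the same mouse it was 0.03 (SE 0.191, adjusted p = 0.920, edgeR with the mouse as a block), where 0 of 25 V segments were called (0%) and 3 had an unadjusted p under 0.05. The direction of the organ difference turned with the scaling.

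The libraries with few and with many 1-UMI clonotypes were also compared separately. KO exceeded WT by 0.259 points in spleen among the former (1 mouse each) and by 2.42 points among the latter (2 each). In mLN the differences were 0.641 points (2 KO and 1 WT) and 1.04 points (1 KO and 2 WT). Counted in repeated clonotypes, TRBV31 took 8.60%, 8.89% and 9.44% in WT mLN and 10.02%, 10.2% and 10.5% in KO mLN. Of 21 V segments tested on these clonotypes 0 were called by edgeR (0%) and 1 had an unadjusted p under 0.05. The corresponding log2 fold change was 0.15 (SE 0.0850, adjusted p = 0.489, edgeR), so that this difference did not pass the test over all V segments. In spleen the same shares were 8.70%, 9.44% and 8.83% in WT and 8.31%, 10.2% and 10.6% in KO, and KO replicate 1 lay below every WT spleen.

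TRBV31 ranked 6th of 31 V segments by mean share of UMIs, at 6.99% ± 1.06 (SD over 6 mice, each the mean of its organs). TRBV3, next above it, took 7.41% ± 1.94 and exceeded TRBV31 in 4 of 6 mice. TRBV13-3, next below it, took 6.51% ± 4.43 and lay under TRBV31 in 5 of 6 mice. Neither neighbour was separated from TRBV31 by more than the spread between mice. Relative to its mean, the share of TRBV31 had the smallest spread between mice among the 13 V segments with a mean share over 4%, with an SD of 15.2% of the mean against 19.1% for TRBV13-2 and 83.2% for TRBV15. TRBV1, the V segment farthest upstream, took 8.82% ± 3.45, TRBV29 took 1.65% ± 0.892 and TRBV30 took 0.232% ± 0.194.

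The V segments whose level followed that of TRBV31 most closely across the 12 libraries, by Pearson's r of log2(percent of UMIs + 0.1), were TRBV22 (r = 0.77), TRBV30 (r = 0.52) and TRBV17 (r = 0.51). TRBV22 took 0.00875% of UMIs on average, far under the offset of 0.1%. The 12 points came from 6 mice, and over the 6 mice r was 0.67, 0.50 and 0.28. Other V segments followed TRBV31 more closely over the 6 mice, with the highest r for TRBV2 (0.93), TRBV14 (0.83) and TRBV12-1 (0.81).

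Next, the choice of J segment was compared between TRBV31 and all other V segments in the same mice. TRBV31 joined a TRBJ2 segment in a smaller share of clonotypes than the other V segments did in each of 6 mice. The share was 63.6%, 59.4% and 53.2% in WT replicates 1, 3 and 4 and 56.6%, 63.7% and 61.1% in KO replicates 1, 2 and 3. For the other V segments it was 66.6%, 67.4% and 62.7% in the WT mice and 67.9%, 66.7% and 68.3% in the KO mice. The ranges overlapped, from 53.2% to 63.7% against 62.7% to 68.3%, but within each mouse TRBV31 was lower. The mean difference was −7.01 points ± 3.42 (SD, n = 6; exact sign-flip test, two-sided, p = 0.03125, the smallest the 64 sign patterns allow; adjusted p = 0.0625 over 8 planned tests). It did not pass the adjusted threshold. In the 2 mice with few 1-UMI clonotypes in both organs the mean difference was −7.21 points, in the 3 with many −6.82, and in KO replicate 3, with 1 library of each kind, −7.18.

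For repeated clonotypes the TRBJ2 share was 62.6% for TRBV31 and 65.9% for other V segments. The difference was −3.33 points, with TRBV31 lower in 5 of 6 mice (exact sign-flip test, p = 0.09375, adjusted p = 0.107). WT replicate 1 went the other way, with 65.8% against 64.9%. In spleen libraries alone the difference was −7.82 points (6 of 6 mice lower), and in mLN alone −3.60 points (4 of 6). Out-of-frame or stop-containing joints are not selected for the receptor they encode, but errors in a productive sequence can look the same. Among these clonotypes the TRBJ2 share of TRBV31 was lower in 4 of 6 mice. The differences ran from −18.3 points in KO replicate 1 to 1.81 points in WT replicate 3. The TRBJ2 share of TRBV31 itself was 60.5% ± 3.61 in KO and 58.7% ± 5.21 in WT (exact permutation test, p = 0.6, where 3 mice against 3 cannot go below 0.1).

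**Figure D2:**
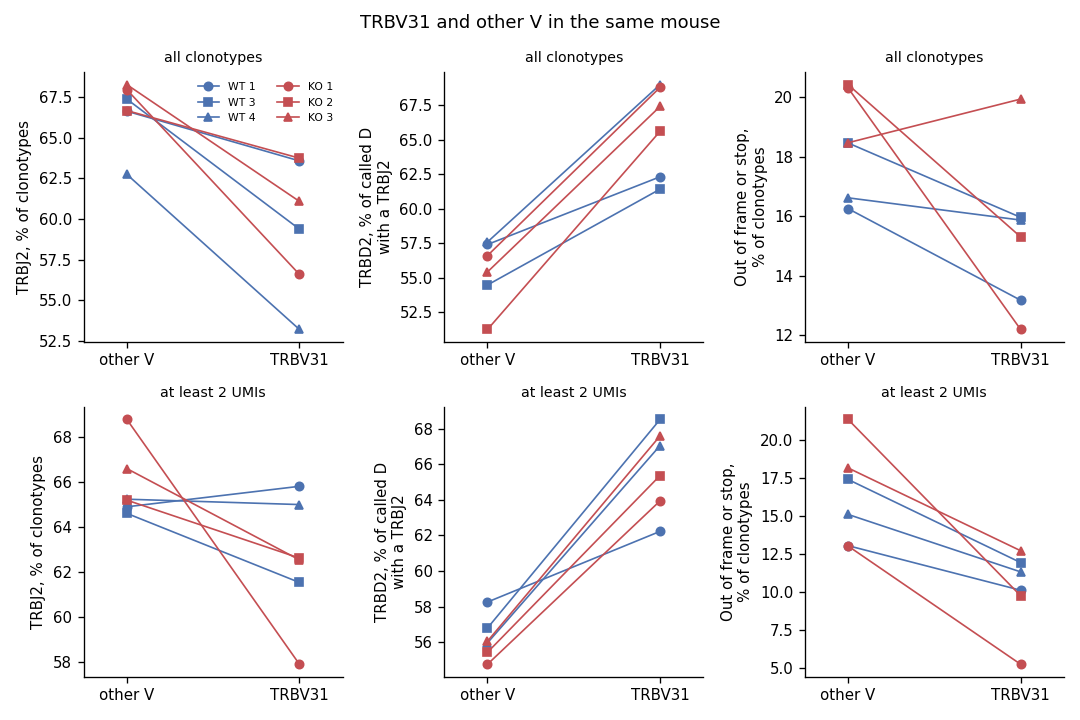
Lines join TRBV31 and all other V segments of the same mouse (blue, WT; red, KO; 1 marker per mouse) for the percent of clonotypes with a TRBJ2 segment, the percent of TRBD2 among called D segments of TRBJ2 clonotypes, and the percent of out-of-frame or stop-containing clonotypes; the upper row uses all clonotypes and the lower row those of at least 2 UMIs, and the vertical axes do not start at 0. The TRBJ2 share averaged 66.6% and 59.6% in the upper row, and the TRBD2 share was higher with TRBV31 in each mouse in both rows.

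Each V segment with enough clonotypes was set beside TRBV31. By the mean over mice, TRBV31 had the lowest TRBJ2 share of 22 V segments, 59.6% with a range over mice from 53.2% to 63.7%. TRBV13-1 followed at 60.1% (45.5% to 65.8%) and TRBV24 at 60.3%, and the ranges of both covered that of TRBV31. TRBV1 had 61.6%, TRBV29 63.3% and TRBV30 71.0%, and TRBV14 had the highest share at 80.3%. By repeated clonotypes TRBV31 ranked 6th from the lowest, at 62.6%, behind TRBV24 (55.7%), TRBV29, TRBV26, TRBV1 and TRBV13-1. Thus TRBV31 lay at the low end of the V segments by all clonotypes and within their range by the larger ones.

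**Figure D3:**
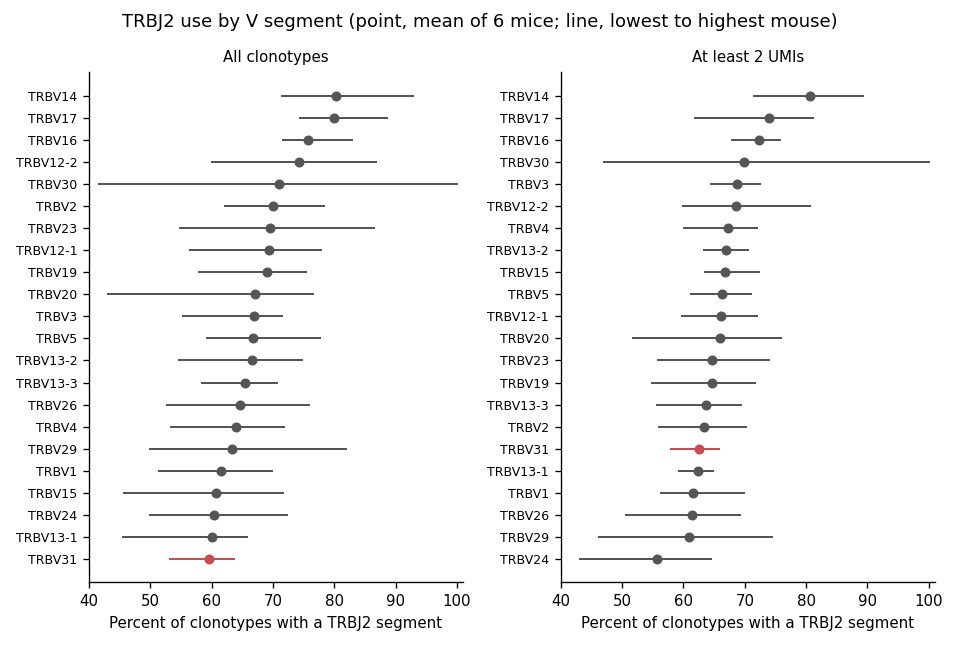
Each row is 1 of 22 V segments, ordered by the mean percent of its clonotypes that used a TRBJ2 segment (horizontal axis, from 40%), with the point at the mean of 6 mice and the line from the lowest to the highest mouse; TRBV31 is in red. TRBV31 is the lowest of 22 on the left (59.6%, all clonotypes) and 6th on the right (62.6%, at least 2 UMIs).

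Single J segments were tested on clonotype counts united per mouse, with the mouse as a block. Of 12 J segments tested, 4 differed between TRBV31 and the other V segments (33.3%), 2 of them higher and 2 lower with TRBV31. TRBJ1-6 and TRBJ2-3 were used more, and TRBJ2-4 and TRBJ2-1 less. In repeated clonotypes 2 of 12 were called (16.7%), namely TRBJ1-2 as higher and TRBJ2-4 as lower, so that TRBJ2-4 was the segment called in both sets. Out-of-frame or stop-containing clonotypes gave another pair, TRBJ2-3 as higher and TRBJ2-1 as lower (−0.92, adjusted p = 0.0136, edgeR), and TRBJ2-4 was not called there (−0.46, adjusted p = 0.259, edgeR). Counted in UMIs, 0 of 12 were called by edgeR and 2 had an unadjusted p under 0.05. J segments are parts of 1 whole, so that a lower share of one raises the others.

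TRBJ2-4 took 9.30%, 7.22% and 6.86% of TRBV31 clonotypes in WT replicates 1, 3 and 4 and 4.39%, 4.94% and 10.9% in KO replicates 1, 2 and 3. The other V segments used it in 9.05%, 13.8% and 11.2% in WT and 9.97%, 11.5% and 10.8% in KO. TRBV31 was lower in 4 of 6 mice and slightly higher in WT replicate 1 and KO replicate 3. The log2 fold change was −0.68 (SE 0.185, adjusted p = 0.0124, edgeR). Repeated clonotypes used it less with TRBV31 in 6 of 6 mice, KO replicate 3 by a margin near 0, with 7.68% ± 1.77 against 10.3% ± 0.562 (log2 fold change −0.38, SE 0.125, adjusted p = 0.0319, edgeR). TRBJ1-3 was also lower in 6 of 6 mice in that set, but was not called (−0.26, SE 0.154, adjusted p = 0.222, edgeR).

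TRBJ2-3 took 8.53%, 12.6% and 9.50% of TRBV31 clonotypes in the WT mice and 12.7%, 13.6% and 17.6% in the KO mice. The other V segments used it in 8.39%, 8.70% and 7.95% in WT and 9.34%, 11.3% and 8.82% in KO. TRBV31 was higher in 6 of 6 mice, with a log2 fold change of 0.46 (SE 0.158, adjusted p = 0.0210, edgeR), and the difference in WT replicate 1 was small. It was not called without WT replicate 3, without KO replicate 1 or without KO replicate 3. In repeated clonotypes it was higher in 5 of 6 mice and missed the threshold (0.33, SE 0.130, adjusted p = 0.0720, edgeR). Among out-of-frame or stop-containing clonotypes TRBJ2-3 was called in the same direction (0.69, adjusted p = 0.0343, edgeR).

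TRBJ1-6 took 2.33%, 4.73% and 2.54% of TRBV31 clonotypes in WT and 2.93%, 6.80% and 8.44% in KO, against a range from 2.14% to 3.503% for the other V segments. KO replicates 2 and 3 held the high values. The log2 fold change was 0.93 (SE 0.293, adjusted p = 0.0210, edgeR). Of repeated clonotypes TRBJ1-6 took 3.599% ± 0.972 against 2.97% ± 0.227 and was not called (0.34, SE 0.202, adjusted p = 0.222, edgeR), and it was not called without KO replicate 2 or without KO replicate 3 either.

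TRBJ2-1 took 11.6%, 8.80% and 8.12% of TRBV31 clonotypes in WT and 7.32%, 4.22% and 6.46% in KO, against 8.68% to 13.4% for the other V segments. It was lower with TRBV31 in 5 of 6 mice, WT replicate 1 being the exception. The log2 fold change was −0.53 (SE 0.178, adjusted p = 0.0210, edgeR), and −0.20 in repeated clonotypes, where it was not called (SE 0.123, adjusted p = 0.222, edgeR). It was also not called with DESeq2 or TMM scaling, under which the J segments shifted upwards by a median of 0.08 and 0.15 on the log2 scale, nor without KO replicate 1, 2 or 3. With TMM scaling 3 J segments were higher and 1 lower.

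TRBJ1-2 took 3.10%, 10.7% and 17.9% of TRBV31 clonotypes in WT and 8.29%, 3.58% and 3.97% in KO, against 3.97% to 6.06% for the other V segments. WT replicate 4 had 542 TRBJ1-2 clonotypes among its 3030 with TRBV31, the highest share of any mouse. Most of these rested on 1 UMI, and of its repeated TRBV31 clonotypes 56 of 503 used TRBJ1-2 (11.1%). The log2 fold change by all clonotypes was 0.56 (SE 0.234, adjusted p = 0.0539, edgeR). Of repeated clonotypes with TRBV31, a larger share used it in 5 of 6 mice, with 6.86% ± 2.62 against 4.80% ± 0.324, and was called (0.60, SE 0.168, adjusted p = 0.0191, edgeR). By all clonotypes it was called as higher without KO replicate 2 and without KO replicate 3, whereas without WT replicate 4 the log2 fold change was 0.30 (adjusted p = 0.337, edgeR).

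The remaining 7 J segments were called in neither set with all 6 mice. TRBJ2-7, the most used J segment of both classes, took 15.1% ± 5.05 of TRBV31 clonotypes and 18.1% ± 1.05 of the others. TRBV31 was lower in 5 of 6 mice and much higher in KO replicate 2, at 24.8%. Its log2 fold change was −0.29 (adjusted p = 0.147, edgeR), and without KO replicate 2 it was −0.47 and called (adjusted p = 0.0174, edgeR). TRBJ1-5 took 3.49% ± 1.84 against 2.71% ± 0.933 (log2 fold change 0.18, SE 0.290, adjusted p = 0.655, edgeR). TRBJ1-4 took 7.07% ± 3.11 against 5.54% ± 0.618, with the highest value, 13.2%, in KO replicate 1. TRBJ1-7 and TRBJ2-6, at most 0.0661% in the other V segments, were listed with 0 TRBV31 clonotypes.

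**Figure D4:**
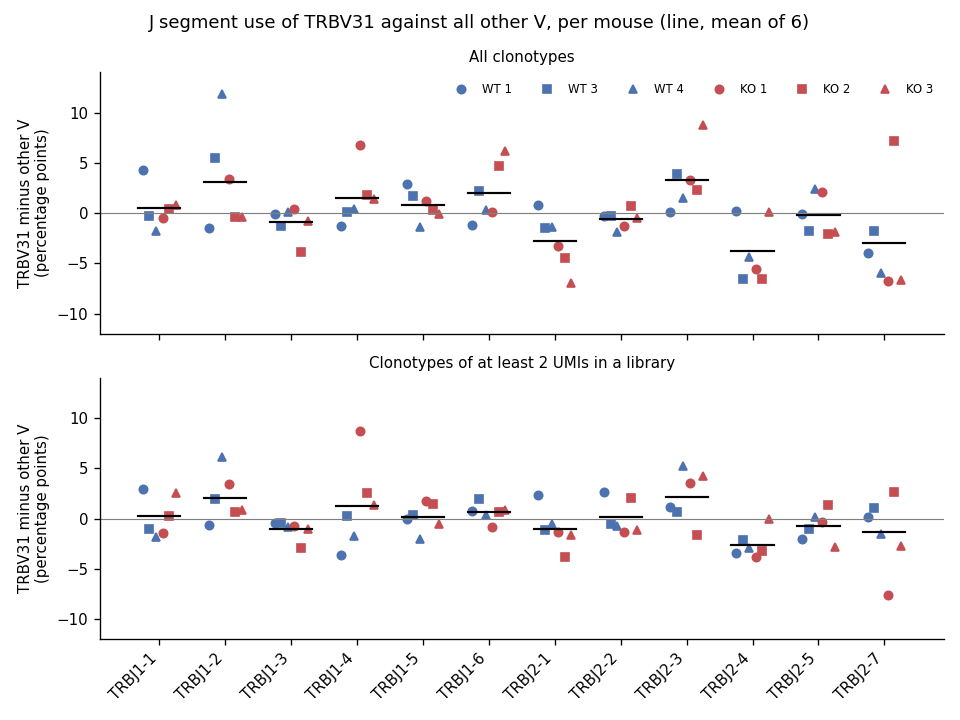
Each point is the share of a J segment among TRBV31 clonotypes minus its share among clonotypes of all other V segments in 1 mouse, in percentage points (blue, WT; red, KO; line, mean of 6 mice), for all clonotypes above and for those of at least 2 UMIs below. TRBJ2-4 lies at or below 0 in most mice above (mean −3.79) and below 0 in 6 of 6 mice below (mean −2.57).

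The difference in J use between TRBV31 and the other V segments was then compared between the genotypes. Of 12 J segments, 1 was called (8.33%). This was TRBJ1-2, whose log2 fold change with TRBV31 was lower in KO than in WT (difference of log2 fold changes −1.03, SE 0.333, adjusted p = 0.0385, edgeR). TRBV31 exceeded the other V segments in 3 of 6 mice only, WT replicates 3 and 4 and KO replicate 1. The WT values ran from 3.10% to 17.9% and the KO values from 3.58% to 8.29%, and they overlapped. In repeated clonotypes 0 of 12 were called (0%) by edgeR, 1 had an unadjusted p under 0.05, and TRBJ1-2 had −0.42 (adjusted p = 0.713, edgeR). In that comparison 0 J segments were called without WT replicate 3, without WT replicate 4, without KO replicate 2 or without KO replicate 3, and without KO replicate 1 TRBJ2-1 was called as well.

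By the whole profile of J use, the V segments nearest to TRBV31 were TRBV24, TRBV13-3 and TRBV13-2, among 21 V segments with at least 200 clonotypes. The distance, the share of clonotypes that would have to change their J segment for the profiles to match, was 0.104, 0.146 and 0.150. For repeated clonotypes these distances were 0.0842, 0.0612 and 0.107, and the order changed. TRBV13-3 was then nearest, followed by TRBV20 (0.0629), TRBV5 (0.0730) and TRBV3 (0.0780), and TRBV24 and TRBV13-2 lay farther away. TRBV30 was among the farthest (0.352 and 0.170), and TRBV1 stood at 0.201 and 0.101.

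Then the D segment was examined. TRBD1 lies before both J clusters and can join either, whereas TRBD2 lies after the TRBJ1 cluster and joins TRBJ2 segments. TRBD2 was called in 46.7% ± 2.81 of TRBV31 clonotypes with a D call and in 42.6% ± 1.66 of the others, a difference of 4.15 points ± 3.66 with TRBV31 higher in 5 of 6 mice (exact sign-flip test, p = 0.0625, adjusted p = 0.0714). Within TRBJ2 clonotypes, where both D segments are available, the shares were 62.3%, 61.4% and 69.0% in WT and 68.8%, 65.6% and 67.4% in KO for TRBV31. For the other V segments they were 57.4%, 54.5% and 57.6% in the WT mice and 56.6%, 51.2% and 55.4% in the KO mice. The lowest TRBV31 value, in WT replicate 3, lay above the highest value of the others.

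The mean difference within TRBJ2 clonotypes was 10.3 points ± 3.60 (exact sign-flip test, p = 0.03125, the smallest possible, adjusted p = 0.0521 over 10 tests). For repeated clonotypes it was 9.57 points, with 65.8% against 56.2% and TRBV31 higher in 6 of 6 mice (exact sign-flip test, p = 0.03125, adjusted p = 0.0391). Weighted by UMIs it was 9.30 points ± 12.9 and was not called, with TRBV31 higher in 5 of 6 mice and a difference of −5.88 in WT replicate 1 (exact sign-flip test, p = 0.15625, adjusted p = 0.25). This measure was added after the TRBD2 share had been seen. A D segment was called in 77.1% of TRBV31 and 69.5% of other TRBJ2 clonotypes, and 11.6% and 13.9% of the calls were ties between TRBD1 and TRBD2. In TRBJ1 clonotypes, where TRBD2 cannot join by the usual route, TRBD2 was called in 11.7% for TRBV31 and 12.9% for other V segments, and in 10.2% and 8.64% of repeated clonotypes. These shares give the level at which TRBD1 was taken for TRBD2, and the reverse error was not measured.

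The V end of the joint was compared in the same way. As deposited, TRBV31 alignments covered 11.9 V bases of CDR3 ± 0.353, against 13.5 ± 0.280 for other V segments, and this was lower in 6 of 6 mice (difference −1.62 ± 0.126, exact sign-flip test, p = 0.03125, adjusted p = 0.0625). TRBV31 has a shorter germline stretch in CDR3 than most V segments, which gave 14 to 17 aligned bases. As deposited it held at most 13, under the lowest mouse mean of the other V segments (13.3, KO replicate 3). The direction and p-value of this difference were therefore fixed in advance and say nothing about trimming. The V reference of the alignments ended 1 base early for TRBV31. It held 13 of the 14 genomic bases shown above, whereas for 20 other V segments whose aligned end was found in the genome it ended directly at the heptamer. The end of TRBV26 was not found in this way. Of TRBV31 entries of at least 2 UMIs that were aligned to the end, 66.5% had the missing t as the next base.

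With that base counted as V where present, TRBV31 lost 1.75 germline V bases per clonotype, against 2.96 for other V segments. The difference was −1.21 bases ± 0.189, and TRBV31 was lower in 6 of 6 mice (exact sign-flip test, p = 0.03125, adjusted p = 0.0625). The values were 1.42 and 2.59 bases among clonotypes of at least 2 UMIs (difference −1.17, 6 of 6 mice, exact sign-flip test, p = 0.03125, adjusted p = 0.0391). In the latter, 41.3% of TRBV31 clonotypes kept every germline base, against 22.3% of the others pooled. TRBV31 did not stand apart from each V segment in this, since 45.6% of TRBV12-2, 44.2% of TRBV5 and 39.4% of TRBV2 clonotypes were untrimmed, and TRBV12-2 lost 1.31 bases on average. As aligned, without the added base, the difference in deleted bases was −1.86, so that part of it came from the reference.

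**Figure D5:**
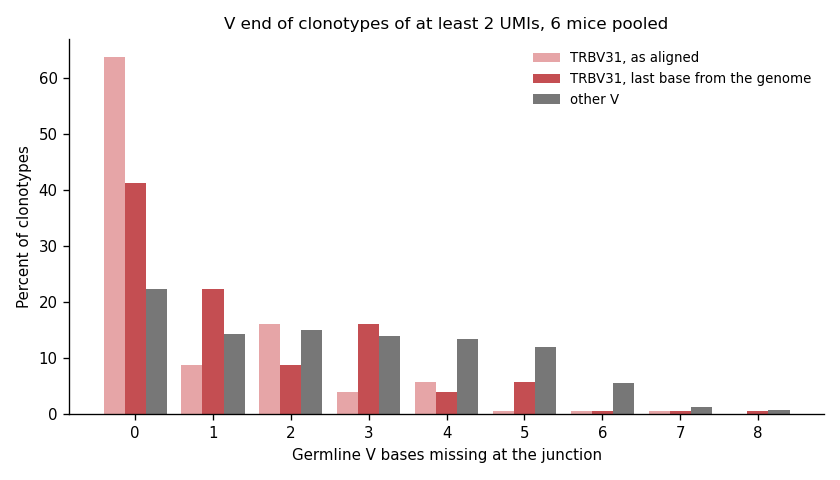
Bars give the percent of clonotypes of at least 2 UMIs that lack 0 to 8 germline V bases at the junction, for TRBV31 as aligned, for TRBV31 with its last germline base taken from the genome, and for all other V segments, with 6 mice pooled. An untrimmed V end was found in 41.3% of TRBV31 clonotypes with the genomic end and in 22.3% of the others.

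The stretch between the aligned V and J, which holds the D segment and the nontemplated bases, was 10.6 bases in TRBV31 and 9.75 in other V segments as deposited (difference 0.80 ± 0.333, higher in 6 of 6 mice, exact sign-flip test, p = 0.03125, adjusted p = 0.0625). With the genomic V end the difference was 0.45 bases, higher in 5 of 6 mice (exact sign-flip test, p = 0.0625, adjusted p = 0.0714). Repeated clonotypes with the genomic V end differed by 0.60 bases, with 9.49 against 8.89 (exact sign-flip test, p = 0.03125, adjusted p = 0.0417). TRBV31 was higher in 6 of 6 mice, but in WT replicate 3 by only 0.008 bases. The whole CDR3 was 41.1 bases long with TRBV31 and 41.6 with other V segments, a difference of −0.55 bases ± 0.423 with TRBV31 shorter in 5 of 6 mice (exact sign-flip test, p = 0.0625, adjusted p = 0.0714). KO replicate 3 was the exception, with 42.0 against 41.7. For repeated clonotypes TRBV31 was shorter in 6 of 6 mice, with a difference of −0.61 bases (exact sign-flip test, p = 0.03125, adjusted p = 0.0417). TRBV31 did not stand apart from each V segment in this. Pooled over mice it had 40.8 bases, TRBV20 39.3 and TRBV26 40.5, against 43.1 for TRBV2 and 43.3 for TRBV5. Weighted by UMIs the difference was −0.21 bases, and TRBV31 was longer in KO replicates 1 and 3 (exact sign-flip test, p = 0.21875, adjusted p = 0.328). Productive CDR3s of that set peaked at 14 residues in both classes, with 33.4% for TRBV31 and 31.2% for other V segments, and CDR3s of 15 residues made up 16.6% and 21.2%.

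Out-of-frame joints and joints with a stop codon encode no functional beta chain. Such sequences can come from the other allele of a cell with a productive chain or from sequence errors, and their origin was not tested. Clonotypes of this kind made up 13.2%, 15.97% and 15.9% of TRBV31 clonotypes in WT and 12.2%, 15.3% and 19.9% in KO mice. Among the other V segments the share was 16.3%, 18.5% and 16.6% in the WT mice and 20.3%, 20.4% and 18.5% in the KO mice. TRBV31 was lower in 5 of 6 mice, and KO replicate 3 was the exception. The mean difference was −3.02 points ± 3.35 (exact sign-flip test, p = 0.09375, adjusted p = 0.09375). For repeated clonotypes it was −6.16 points, 10.2% against 16.3%, and lower in 6 of 6 mice (exact sign-flip test, p = 0.03125, adjusted p = 0.0417). Weighted by UMIs it turned to 0.90 points, with TRBV31 higher in 4 of 6 mice (exact sign-flip test, p = 0.59375, adjusted p = 0.59375). The largest excess was in KO replicate 3, with 10.1% of TRBV31 UMIs against 4.19% of the others there. Single V segments differed widely in this share. Of repeated clonotypes, 9.38% were affected with TRBV3, 10.96% with TRBV31, 14.3% with TRBV1, 30.5% with TRBV4 and 70.8% with TRBV24.

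The size of TRBV31 clones was examined last. Mean UMIs per clonotype were lower for TRBV31 in 6 of 6 mice, with a difference of −0.35 on the log2 scale (3.45 ± 0.442 against 3.81 ± 0.482, exact sign-flip test, p = 0.03125, adjusted p = 0.0625). Of mLN clonotypes, 51.7% with TRBV31 and 48.1% with other V segments were also found in the spleen of the same mouse (difference 3.598 points ± 3.95, higher in 5 of 6 mice, exact sign-flip test, p = 0.0625, adjusted p = 0.0714). At an equal depth of 2488 UMIs per library the values were 48.3% and 48.1%. Between 5 and 13 of the 100 largest clonotypes of a library carried TRBV31, and the best placed one ranked from 6th to 37th.

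The largest TRBV31 clonotype of each mouse, by the mean of its share in both organs, is shown to give the joints behind the averages. Bases of V, including the genomic last base where present, and of J are in lower case, and the bases in between are in capitals.
WT replicate 1: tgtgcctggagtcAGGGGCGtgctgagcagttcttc
WT replicate 3: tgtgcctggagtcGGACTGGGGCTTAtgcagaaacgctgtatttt
WT replicate 4: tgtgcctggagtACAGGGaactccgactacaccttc
KO replicate 1: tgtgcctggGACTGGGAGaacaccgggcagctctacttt
KO replicate 2: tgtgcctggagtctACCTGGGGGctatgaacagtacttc
KO replicate 3: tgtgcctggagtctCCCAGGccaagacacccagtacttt
Of these joints, those of KO replicates 2 and 3 kept the whole V end, and that of KO replicate 1 had lost 5 bases. The 6 clonotypes used TRBJ2-1, TRBJ2-3, TRBJ1-2, TRBJ2-2, TRBJ2-7 and TRBJ2-5 in the order shown.

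Their shares of all UMIs in spleen and mLN were 0.790% and 0.818% in WT replicate 1, 0.370% and 0.444% in WT replicate 3, and 1.02% and 0.338% in WT replicate 4. In KO they were 0.726% and 0.737% in replicate 1, 0.779% and 0.677% in replicate 2, and 0.509% and 1.61% in replicate 3. Each was the largest or among the 5 largest TRBV31 clonotypes in both organs of its mouse. The WT replicate 4 clonotype, which encodes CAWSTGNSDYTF with TRBJ1-2, differed most between organs among the WT mice, and 16 other TRBV31 clonotypes of that mouse lay 1 or 2 bases away from it. In KO replicate 3 the mLN share rested on 40 UMIs (Wilson 95% interval 1.18% to 2.18%). Of the 6 sequences, 5 were also found in other mice, at 0.00705% of a library or less.

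TRBV31 CDR3s were mostly private to a mouse. Of 6750 productive TRBV31 CDR3 amino acid sequences, 189 (2.80%) were found in 2 or more mice, and 1 in at least 4. For other V segments the share was 2.05%, counted per V segment. Of repeated ones the shares were 5.11% and 4.47%. The most widely found was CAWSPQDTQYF, in 4 mice. It had 339 UMIs in KO replicate 3 and 25 in WT replicate 1, but 2 in KO replicate 2 and 1 in WT replicate 4. Next came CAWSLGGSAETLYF (3 mice, 6 libraries and 5 nucleotide sequences), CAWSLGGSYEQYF, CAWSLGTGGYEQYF and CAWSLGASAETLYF, each in 3 mice. For each of these 5, the nucleotide sequence found in most mice is shown. Bases of V and those from the deposited start of J are in lower case. In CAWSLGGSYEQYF and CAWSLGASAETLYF the deposited start lay before the first germline J base, so that some lower-case bases there are not germline J.
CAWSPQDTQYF: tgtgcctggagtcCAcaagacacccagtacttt
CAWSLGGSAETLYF: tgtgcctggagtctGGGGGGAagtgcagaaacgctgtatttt
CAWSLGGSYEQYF: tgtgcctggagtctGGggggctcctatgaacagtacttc
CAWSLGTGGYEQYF: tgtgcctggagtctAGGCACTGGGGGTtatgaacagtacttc
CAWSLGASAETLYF: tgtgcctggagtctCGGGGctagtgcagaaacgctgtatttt
Of these joints 4 kept the whole germline V end, and between 2 and 13 bases separated V from the deposited start of J. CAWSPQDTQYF and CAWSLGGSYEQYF had the shortest stretches by the deposited ends, with 2 bases each. Up to the germline J the stretch of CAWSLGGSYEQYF is longer. The sequences of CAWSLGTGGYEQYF and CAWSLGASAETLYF shown were each found in 1 mouse, so that the shared residues came from different joints in different mice.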

How the data were processed

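TCR beta repertoires of 12 libraries (spleen and mLN of 6 mice) were analyzed. According to the authors' methods, RNA was reverse transcribed with primers in the beta constant region, UMIs were added by 5′ RACE, consensus sequences were built with MIGEC and clonotypes assembled with MiXCR at default settings. Tool versions, the genome build and the germline V and J references are not given in the sources used here. Each table as deposited held a whole-number clone count, whose unit is not named and which was read as UMIs. The deposited fraction of each clone was that count over its library total and served only as a check. Errors not removed by UMI collapsing would enter as extra small clonotypes. The tables were not downsampled.

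V segments were tested on UMIs and J segments on clonotypes united per mouse, with edgeR 4.0.16 (quasi-likelihood test, library totals, at least 10 counts in at least 3 columns, Benjamini-Hochberg adjustment over all segments, threshold 0.05). The edgeR and DESeq2 code was tested on simulated data. The J fit had the mouse as a block. Log2 fold changes of the V fits are KO to WT or mLN to spleen, and those of the J fit TRBV31 to other V. Single values per mouse were compared by two-sided exact sign-flip tests over 6 mice (smallest p 0.03125), adjusted over 8 planned tests or, for the 2 measures added later (V bases deleted and TRBD2 within TRBJ2), over all 10. Spleen and mLN libraries sharing genotype and number were treated as 1 mouse. Their deviations in V use correlated at 0.361 to 0.846. Wilson 95% intervals and floors (3 counts of a total) cover counting error only. Floors ran from 0.000608% to 0.121% of a library.

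Named V segments were TRBV1, TRBV29 and TRBV30, the neighbours in level, and the 3 nearest in level or J use. Further V segments and the J segments chosen for their sequences were named after their values were seen. The members and lists were chosen with earlier results of these data known. Alternatives were DESeq2 1.42.0, TMM scaling, no filter, other clonotype sets, single organs, equal depth (50 draws of 2488 UMIs), blocks and leaving out each mouse. The sets without clonotypes near a larger one, clonotypes of at least 2 UMIs per V segment, and the genomic TRBV31 end were chosen after seeing the data. C segment calls were not used. Whether replicates came from separate donors is not stated, so that p-values measure only the spread between these mice.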

Additional observations from a re-analysis of the deposited data

Results flagged for a closer look

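Of 24 values examined over the 6 mice for a mouse standing apart, which chance alone gives in about 1 of 20, 2 had such a mouse. In CDR3 length, KO replicate 3 had TRBV31 joints 0.265 bases longer than those of other V segments, whereas the differences of the other 5 mice ran from −0.900 to −0.515. In KO replicate 2 the share of TRBJ2-7 was 7.14 points higher with TRBV31 than with other V segments, whereas the differences of the other 5 ran from −6.70 to −1.81 points. The log2 fold change of TRBJ1-2 between TRBV31 and other V segments was lower in KO than in WT mice (difference −1.03, adjusted p = 0.0385, edgeR). It was not called without WT replicate 3, WT replicate 4, KO replicate 2 or KO replicate 3, nor with DESeq2 or with no filter on low segments. The part of any single mouse in these values was not tested further.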

How the results depend on the processing

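The precision is limited by 6 mice, by KO replicate 3 mLN with its 27 TRBV31 clonotypes, and by the 1-UMI clonotypes. Of 490 recomputed values over 30 results, 27 changed sign, 33 lost and 32 gained a call, 18 counts moved by over 1.5 times, and the remaining 380 changed in none of these ways. Causes were not tested. The mLN to spleen change of TRBV31 turned to −0.075 (DESeq2), −0.012 (TMM) and −0.018 (no replicate block), and ran from −0.071 to 0.21 with a mouse left out. KO to WT in spleen ran from −0.019 (without KO replicate 3) to 0.56. With replicate numbers 1 and 3 as a replicate block it was 0.45 in spleen and 0.19 in mLN, not called in either. The V use of WT and KO mice of 1 number correlated at −0.0296 to 0.316. Only numbers 1 and 3 occur in both genotypes, and the organs of 1 mouse correlated as low as 0.361. Whether the numbers pair the mice therefore cannot be decided from these values.

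Scaling shifted all V by a median of −0.14 (spleen, DESeq2), 0.13 (mLN, TMM), 0.11 (mLN, DESeq2) and −0.11 (organs, DESeq2). Of J segments, 0 were called by UMIs, 2 without 1-UMI clonotypes, 1 in mLN only, 2 among out-of-frame or stop clonotypes, and 2 to 4 with a mouse left out. Between genotypes 0 were called with DESeq2, no filter, no 1-UMI clonotypes, in-frame clonotypes, mLN only or no clonotypes near a larger one, 2 in spleen only, and 0 to 2 with a mouse left out. TRBJ1-1 turned to −0.086 (UMIs), −0.032 (no 1-UMI clonotypes), −0.041 (none near a larger one) and −0.16 (out-of-frame or stop), and ran from −0.032 (without WT replicate 1) to 0.085. TRBJ1-4 turned to −0.026 (UMIs) and −0.10 (out-of-frame or stop). TRBJ1-5 turned to −0.056 (no 1-UMI clonotypes) and −0.33 (out-of-frame or stop), and TRBJ2-2 to 0.31 (UMIs). TRBJ2-5 turned to 0.033 (DESeq2), 0.10 (TMM), 0.052 (mLN only), 0.32 (out-of-frame or stop) and 8.3e-05 (without KO replicate 2, from −0.13).

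Differences at the smallest p the exact test allows (0.03125) fall on either side of the adjusted threshold with the number of other measures that reach it, so that the calls gained below are not a sign of stability. At equal depth the adjusted p was under 0.05 for CDR3 length (−0.52), TRBD2 (6.05), TRBD2 within TRBJ2 (11.7), TRBJ2 (−6.89), UMIs per clonotype (−0.43), V bases deleted (−1.81), V bases (−1.66) and V to J stretch (0.97). Without 1-UMI clonotypes it was so for CDR3 length (−0.61), out-of-frame or stop share (−6.16), TRBD2 (6.18), TRBD2 within TRBJ2 (9.57), UMIs per clonotype (−0.51), V bases deleted (−1.76), V bases (−1.70) and V to J stretch (1.01), and with the genomic V end as well for V bases deleted (−1.17), V bases (−1.28) and V to J stretch (0.60). With in-frame clonotypes it was so for TRBD2 within TRBJ2 (9.002) and V bases deleted (−1.85). The calls for V bases as deposited were fixed in advance by the shorter TRBV31 reference. With 5 mice the exact test cannot go below 0.0625. The out-of-frame or stop share turned to 0.90 by UMIs. The KO minus WT difference of the TRBJ2 share of TRBV31 turned to −3.10 (no 1-UMI clonotypes), −0.85 (equal depth) and −2.64 (replicate block), and ran from −1.002 to 4.18 with a mouse left out.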
